A study of Homo sapiens with 6 samples.

Results

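The histone genes are the 87 protein-coding genes, of 58825 genes in the table, whose symbols mark them as encoding a core or linker histone. Members were taken by symbol and gene type alone: 71 replication-dependent genes, with symbols beginning HIST1H, HIST2H, HIST3H or HIST4H, and 16 variant genes, with symbols beginning H1F, H2AF or H3F3. The RNA came from 143B cells, a human osteosarcoma line, 36 h after transfection with 80 nmol/L of a SIGLEC15 siRNA (3 libraries) or of a negative control siRNA (3 libraries). Both groups shared the line, the serum-containing medium and the transfection reagent, and poly(A) RNA was sequenced in both. The model is a single established line with a transient knockdown, and the sequence of neither siRNA is given in the sources used here. Nothing in the labels tells whether the libraries came from separate cultures, so each p-value reflects how far these libraries vary, possibly for technical reasons only.

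Nucleosomes wrap DNA around a core of H2A, H2B, H3 and H4, and linker H1 binds where the DNA enters and leaves. Replication-dependent histone genes sit in clusters and are expressed mainly in S phase. Their mRNAs lack introns and typically end in a conserved stem-loop, bound by SLBP, rather than in a poly(A) tail. Variant genes are expressed through the cell cycle, mostly as spliced and polyadenylated mRNAs, and replace core or linker histones outside replication. Some replication-dependent genes also give polyadenylated transcripts, which poly(A) selection captures, whereas mRNAs that end at the stem-loop are largely lost.

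The stem-loop marks which annotated transcripts can end without a poly(A) tail, so it was looked for in GENCODE 29 transcripts on GRCh38. The motif searched was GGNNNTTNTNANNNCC on the sense strand, within the first 100 bases after the stop codon, and its 6 paired stem positions had to match as Watson-Crick or G-T pairs. It was found in 33 of the 51 histone genes with enough annotated sequence after the stop codon (64.7%), and in 0 of 19046 other protein-coding genes. The 7 forms of the 16 bases found are each shown in 1 gene, 5′ to 3′ on the coding strand, with the stem-loop in capitals and 5 flanking bases on each side.
HIST1H2AG: ccaacGGCTCTTTTCAGGGCCaccca
HIST3H2A: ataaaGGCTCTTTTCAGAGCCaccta
HIST1H2BD: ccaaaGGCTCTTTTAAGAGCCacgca
HIST1H3E: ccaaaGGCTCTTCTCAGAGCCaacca
HIST1H4H: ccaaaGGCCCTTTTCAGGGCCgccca
HIST2H4B: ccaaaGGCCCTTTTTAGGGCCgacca
H2AFX: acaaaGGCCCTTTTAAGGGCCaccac
The stretches lie on the plus strand at chr6:27133510-27133535 for HIST1H2AG, chr6:26158582-26158607 for HIST1H2BD and chr6:26225591-26225616 for HIST1H3E. They lie on the minus strand at chr1:228457364-228457389 for HIST3H2A, chr6:26285126-26285151 for HIST1H4H, chr1:149860764-149860789 for HIST2H4B and chr11:119094893-119094918 for H2AFX. The form shown for HIST3H2A was the most frequent, in 17 genes of H2A, H2B and H3. The stem of the H4 genes differed from that form: 5 held the form shown for HIST1H4H and 3 the form shown for HIST2H4B. H2AFX had the same stem as these H4 genes, with another loop. The form shown for HIST1H2BD was in 5 genes of H2B and H3, and the others were in 1 gene each. H2AFX was the only variant gene with a match, and its annotated transcript ran 1044 bases past the stem-loop. In all 33 genes the stem-loop began between 22 and 67 bases after the stop codon.

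Library totals lay between 57966691 and 67655254 gene counts over all genes. The first principal component of log2(CPM + 1), where CPM uses TMM-scaled library sizes, separated the groups and held 33.4% of the variance. On the second, which held 20.0%, SIGLEC15 siRNA replicate 1 (-19.7) and control siRNA replicate 3 (-26.5) stood apart from the other libraries (6.79 to 18.4). SIGLEC15, the targeted gene and a sialic acid-binding receptor, had 12, 8 and 6 counts in the SIGLEC15 siRNA libraries, against 12, 10 and 22 counts in the control siRNA libraries. Its log2 fold change was -0.82 (SE 0.598, 95% interval -2.24 to 0.602, edgeR adjusted p = 0.529). Permuting the labels exactly on log2(CPM + 1) gave a two-sided p of 0.2, and 3 against 3 libraries cannot go below 0.1. A lower SIGLEC15 transcript level was therefore not shown at this depth, and each difference given here is between libraries by their label. Of 8 mesenchymal and bone markers 7 could be tested, and 2 of these passed (28.6%, against 4.65% of all genes tested). The matrix gene SPARC ran at 598 to 613 CPM in SIGLEC15 siRNA libraries and at 340 to 353 CPM in control siRNA libraries (edgeR adjusted p = 0.00137), and the collagen gene COL1A1 at 20.1 to 21.3 CPM in SIGLEC15 siRNA libraries and at 12.2 to 13.7 CPM in control siRNA libraries (edgeR adjusted p = 0.0134). VIM, TWIST1, CDH2, ALPL and the bone transcription factor RUNX2 did not pass. VIM ran at 2556 to 2780 CPM in SIGLEC15 siRNA libraries and at 2908 to 3070 CPM in control siRNA libraries. RUNX2 had 20.1, 3.60 and 15 CPM in SIGLEC15 siRNA libraries, against 3.42, 3.59 and 2.65 CPM in control siRNA libraries (edgeR adjusted p = 0.113). ALPL and COL1A2 were near 0. The epithelial marker EPCAM ran at 8.69 to 11.3 CPM in SIGLEC15 siRNA libraries and at 11.6 to 13.2 CPM in control siRNA libraries (edgeR adjusted p = 0.354), while CDH1, the leukocyte genes PTPRC and CD3E and the endothelial gene CDH5 had no count. The part of these markers in the histone values was not tested.

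Variant genes held most of the histone signal in these poly(A) libraries. Levels are compared between genes as FPKM, which divides by a gene length that ran in proportion to all annotated exon bases of the gene. The summed FPKM of the 16 variant genes was 692, 696 and 624 in the SIGLEC15 siRNA libraries, against 721, 753 and 770 in the control siRNA libraries. That of the 71 replication-dependent genes was 268, 265 and 219 in the SIGLEC15 siRNA libraries, against 265, 250 and 261 in the control siRNA libraries. The variant sums of the groups did not overlap. Their means were 671 ± 40.3 and 748 ± 24.8 FPKM in the SIGLEC15 siRNA and control siRNA groups (SD, n = 3 each). Variant H1 genes had mean sums of 260 FPKM in the SIGLEC15 siRNA group and 309 FPKM in the control siRNA group. Variant H2A genes had 271 and 317 FPKM in these groups. Variant H3 genes went the other way, with 140 and 122 FPKM, and their sums overlapped. H1F0 held 31.4 to 37.1% and H2AFZ 24.1 to 28.5% of the variant sum in each library. The replication-dependent sums overlapped, with means of 251 ± 27.3 FPKM in the SIGLEC15 siRNA group and 259 ± 7.48 FPKM in the control siRNA group. Replication-dependent genes made up 27.9, 27.6 and 26.0% of histone FPKM in the SIGLEC15 siRNA libraries, against 26.9, 24.95 and 25.3% in the control siRNA libraries. As a share of histone counts, with no division by length, they made up 7.58 to 8.35% in the SIGLEC15 siRNA libraries and 7.43 to 7.84% in the control siRNA libraries. Of the variant genes, 11 reached a mean of 1 FPKM over all libraries and 9 reached 10 FPKM, against 26 and 3 of the replication-dependent genes. In bulk RNA, fewer cells in S phase and less histone mRNA per cell cannot be told apart.

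No histone gene passed the test. Of 87 members, 54 had enough counts to be tested (43 replication-dependent and 11 variant), and 0 of these reached an adjusted p under 0.05 by edgeR, where 879 of all 18910 genes tested did (4.65%, of which 2.22% higher and 2.43% lower as shares of all genes tested). At an unadjusted p under 0.05 there were 6 of 54 (11.1%), against 19.1% of all genes tested: HIST1H2AG, H1F0, HIST3H2A, H2AFZ and HIST2H2AC had negative and HIST1H2BC a positive fold change. In 7 of 54 members the SIGLEC15 siRNA and control siRNA values were fully apart as TMM-scaled CPM (12.96%), against 26.6% of all genes tested. Those 7 were HIST1H2AG, H1F0, HIST3H2A, HIST2H2AC and HIST1H2AM, lower in all SIGLEC15 siRNA libraries, and HIST1H2BC and H3F3A, higher in all of them. DESeq2 called 3 of 48 members (H1F0, HIST1H2AG and HIST3H2A; 6.25%), against 17.1% of the 17043 genes it gave an adjusted p. With limma-trend on log2(FPKM + 1), 1 of 37 members was called (HIST1H2AG; 2.70%), against 7.99% of 12032 genes. Restricting edgeR to genes with a mean of at least 1 FPKM called 2 of 37 members (H1F0 and HIST1H2AG; 5.41%), against 8.54% of 12032 genes. In each of these fits the share of members called was below that of all genes. The members were also measured less precisely, with a median SE of 0.247 against 0.177 over all genes tested in the main fit. The part of this in the lower shares was not tested.

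The classes had medians on either side of 0. The median log2 fold change was 0.10 over the 43 tested replication-dependent genes, with 26 positive and 17 negative, and -0.13 over the 11 tested variant genes, with 4 positive and 7 negative. Over all genes tested it was -0.0064, with 9277 positive and 9633 negative. The typical error was larger in the replication-dependent class, with a median SE of 0.294 against 0.0949 in the variant class. Leaving out 1 library at a time gave replication-dependent medians between -0.000948 and 0.198, and variant medians between -0.185 and -0.0384. By family, 12 of 18 tested H2A genes had a negative and 9 of 14 H2B genes a positive fold change. Of the others, 7 of 9 H3 genes, 6 of 10 H4 genes and 2 of 3 H1 genes had a positive fold change. These are counts of signs with no test of the class or family. Each copy of a pair with identical coding sequences counts as 1 gene here, so not all signs are separate measurements. Summed, the log2 fold change was -0.30 for HIST1H4J with HIST1H4K and -0.0029 for HIST2H4A with HIST2H4B. It was 0.11 for HIST2H2AA3 with HIST2H2AA4 and 0.10 for HIST2H3A with HIST2H3C.

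**Figure D1:**
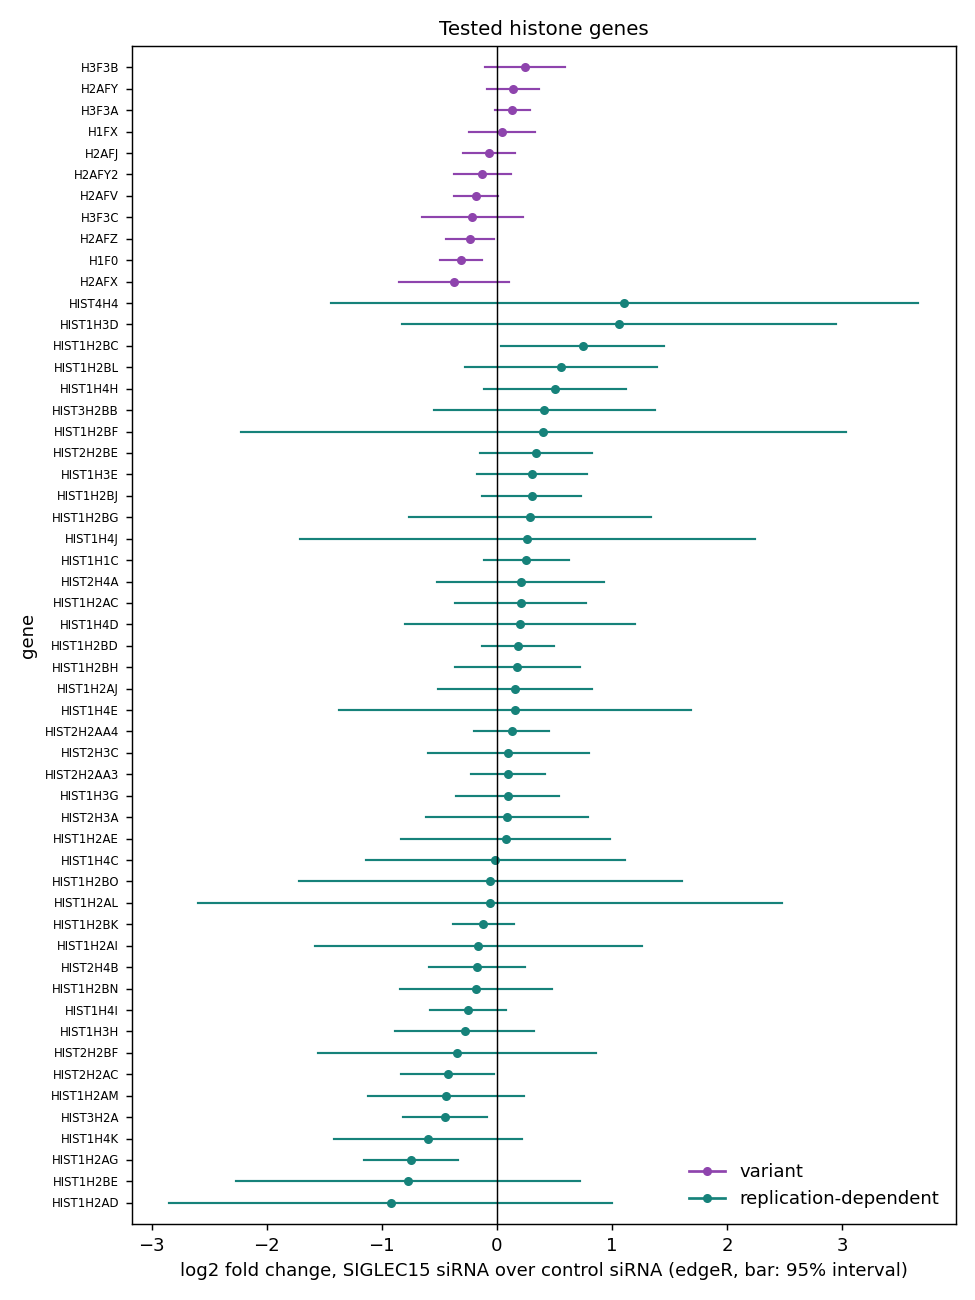
Fitted log2 fold change of SIGLEC15 siRNA over control siRNA (x axis) for the 54 tested histone genes (y axis), with 95% intervals as bars; variant genes are in the upper block and replication-dependent genes in the lower. The points run from -0.92 (HIST1H2AD) to 1.11 (HIST4H4), and the variant genes have the shorter intervals.

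H1F0 (ENSG00000189060, chromosome 22, 37805093 to 37807436, plus strand), a linker histone known to accumulate in resting and differentiated cells, was the most abundant histone gene by FPKM. It had 219, 219 and 203 FPKM in the SIGLEC15 siRNA libraries, against 246, 262 and 286 FPKM in the control siRNA libraries. Every SIGLEC15 siRNA library was below every control siRNA library. The means were 213 ± 9.1 and 264 ± 20.1 FPKM in the SIGLEC15 siRNA and control siRNA groups (SD, n = 3 each). The log2 fold change of -0.31 (SE 0.0777, 95% interval -0.49 to -0.12), or 1.24-fold lower, had an edgeR adjusted p of 0.0803 and did not pass. It was called by DESeq2 (adjusted p = 0.000754) and by edgeR on genes with a mean of at least 1 FPKM (adjusted p = 0.0494). H1FX, another linker variant, had 49.6, 50.2 and 38.5 FPKM in the SIGLEC15 siRNA libraries, against 40.5, 47.3 and 46.1 FPKM in the control siRNA libraries, and these overlapped (edgeR adjusted p = 0.894). The testis linker gene H1FNT had 4 counts in 1 control siRNA library and none elsewhere, and the oocyte linker gene H1FOO had no count.

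H2AFZ encodes H2A.Z, the variant found beside the start sites of active genes. It had 167, 189 and 154 FPKM in the SIGLEC15 siRNA libraries, against 186, 215 and 196 FPKM in the control siRNA libraries, and the fitted log2 difference was -0.23 (SE 0.0881, 95% interval -0.44 to -0.02, edgeR adjusted p = 0.218). SIGLEC15 siRNA replicate 2 lay above control siRNA replicate 1, so the groups overlapped. Per kilobase of the longest coding transcript H2AFZ ranked the first and H1F0 the second of the variant genes, the reverse of their order by FPKM. H2AFV, which encodes a closely related H2A.Z, ran at 19.1 to 20.3 FPKM in the SIGLEC15 siRNA libraries and at 20.5 to 23.7 FPKM in the control siRNA libraries, and the log2 difference was -0.18 (SE 0.0801, edgeR adjusted p = 0.285). The H2AFV groups were apart as FPKM and overlapped as TMM-scaled CPM. Both H2A.Z genes thus had negative fold changes that did not pass the test.

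H2AFX encodes the variant that is phosphorylated at DNA breaks. It had 51.7, 32.7 and 31.2 FPKM in the SIGLEC15 siRNA libraries, against 48.9, 49.7 and 51.5 FPKM in the control siRNA libraries. SIGLEC15 siRNA replicate 1 lay above all control siRNA libraries, and replicates 2 and 3 lay below all of them. The log2 fold change was -0.37 (SE 0.2, edgeR adjusted p = 0.38) with all libraries, and -0.66 (edgeR adjusted p = 0.0221) without SIGLEC15 siRNA replicate 1, in a fit that called 1 of 61 members and 2.01% of all genes. CENPA, the centromeric H3 variant that lies outside the symbol rule, also had its highest value in that library, with 25.9, 13.5 and 12.7 CPM in the SIGLEC15 siRNA libraries against 18.5, 17.7 and 17.2 CPM in the control siRNA libraries. That library stood apart on the second principal component, and the part of this in the H2AFX values was not tested.

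The remaining H2A variants overlapped between the groups. The macroH2A genes, whose proteins carry a large extra domain and are known from silent chromatin, differed in level. H2AFY2 had 24.5 to 26.9 FPKM in the SIGLEC15 siRNA libraries and 24.7 to 30.7 FPKM in the control siRNA libraries. H2AFY had 6.29 to 7.29 FPKM in the SIGLEC15 siRNA libraries and 5.35 to 6.40 FPKM in the control siRNA libraries. The order of these genes depends on the length used: per kilobase of the longest coding transcript, H2AFY ranked the eighth of the variant genes and H2AFY2 the tenth, against the tenth and the seventh by FPKM. H2AFY2 overlaps AIFM2 on the opposite strand, and the sources used here do not say whether counting used strand. H2AFJ had 10.0 to 11.6 FPKM in the SIGLEC15 siRNA libraries and 11.1 to 12.4 FPKM in the control siRNA libraries. The testis-specific H2AFB1, H2AFB2 and H2AFB3 had at most 7 counts in any library.

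H3F3A and H3F3B encode the same replacement H3 protein, which is placed into chromatin outside replication. H3F3B had 76.2, 79.7 and 78.3 FPKM in the SIGLEC15 siRNA libraries, against 83.0, 55.2 and 59.6 FPKM in the control siRNA libraries. Control siRNA replicate 1 was above all SIGLEC15 siRNA libraries and the other control siRNA libraries were below them. The log2 fold change was 0.24 (SE 0.145, edgeR adjusted p = 0.429), and 0.44 (edgeR adjusted p = 0.048) without control siRNA replicate 1, in a fit that called 1 of 58 members and 1.68% of all genes. H3F3A had 61.5, 61.2 and 57.1 FPKM in the SIGLEC15 siRNA libraries, against 51.9, 55.9 and 55.7 FPKM in the control siRNA libraries. All SIGLEC15 siRNA libraries were above all control siRNA libraries, and the log2 difference was 0.13 (SE 0.0648, 95% interval -0.02 to 0.29, edgeR adjusted p = 0.328). H3F3C, an intronless copy, had 1.48 to 1.66 FPKM in the SIGLEC15 siRNA libraries and 1.52 to 1.99 FPKM in the control siRNA libraries. The replication-dependent H3 genes together summed to 5.78 ± 0.673 FPKM in the SIGLEC15 siRNA group and 4.94 ± 0.746 FPKM in the control siRNA group (SD, n = 3 each), so nearly all H3 signal in these libraries came from the variant genes.

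**Figure D2:**
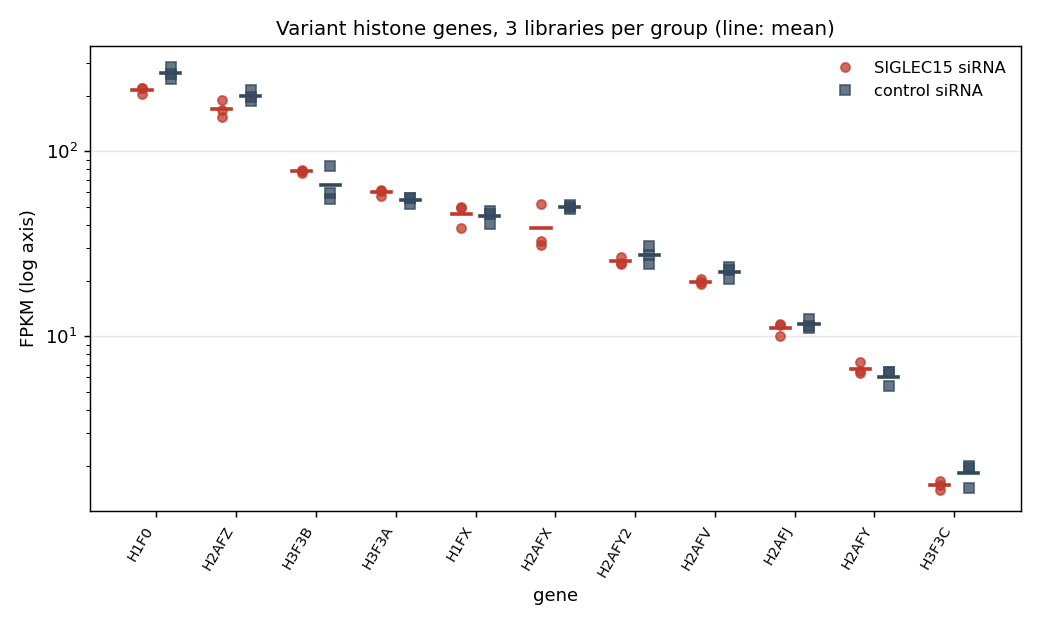
FPKM (y axis, log) of the 11 variant histone genes with a mean of at least 1 FPKM (x axis), with 1 point per library and a line at each group's mean, SIGLEC15 siRNA left of control siRNA. H1F0 is lower in all SIGLEC15 siRNA libraries, at 203 to 219 FPKM in SIGLEC15 siRNA libraries against 246 to 286 FPKM in control siRNA libraries, and 1 SIGLEC15 siRNA library of H2AFX, at 51.7 FPKM, lies apart from the other SIGLEC15 siRNA libraries.

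Among replication-dependent genes a single H2B gene dominated by FPKM. HIST1H2BK (ENSG00000197903, chromosome 6, 27146418 to 27146798, minus strand) had 117, 120 and 93.4 FPKM in the SIGLEC15 siRNA libraries, against 128, 112 and 118 FPKM in the control siRNA libraries. It held 42.6 to 48.4% of the class's FPKM in each library. Its part of the class's counts, with no division by length, was smaller. In the SIGLEC15 siRNA libraries it had 3546 of 14627, 3150 of 12504 and 2856 of 12359 counts. In the control siRNA libraries it had 3568 of 13096, 3001 of 11620 and 3308 of 12977 counts. The groups overlapped (log2 fold change -0.12, SE 0.112, 95% interval -0.38 to 0.15, edgeR adjusted p = 0.642). Its gene model has 381 bases of coding sequence and no bases after the stop codon, so reads past the stop would not count towards it. The other H2B genes were far lower: HIST1H2BD had 7.86 to 9.37 FPKM in the SIGLEC15 siRNA libraries and 6.80 to 8.48 FPKM in the control siRNA libraries, and HIST2H2BE had 2.69 to 4.31 FPKM in the SIGLEC15 siRNA libraries and 2.31 to 3.18 FPKM in the control siRNA libraries.

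HIST1H2BC was the member with a positive fold change at an unadjusted p under 0.05. It had 1.79, 2.05 and 1.79 FPKM in the SIGLEC15 siRNA libraries, against 0.903, 1.63 and 0.811 FPKM in the control siRNA libraries. The groups did not overlap, although control siRNA replicate 2 came near the SIGLEC15 siRNA libraries. The log2 fold change was 0.75 (SE 0.299, 95% interval 0.03 to 1.46, edgeR adjusted p = 0.24). HIST1H2BM had 0 counts in every SIGLEC15 siRNA library, against 11, 11 and 10 counts in the control siRNA libraries, and too few counts to be tested. With a floor of 3 counts in each SIGLEC15 siRNA library, it was 3.74-fold lower there than the observed control siRNA mean. The floor allows for counting error in the 0 counts only. Counting error in the control siRNA counts and other variation between libraries are left out. HIST1H2BM was singled out after its values were seen.

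Of the replication-dependent H2A genes, HIST3H2A on chromosome 1 was the highest by FPKM. It had 17.0, 14.0 and 11.8 FPKM in the SIGLEC15 siRNA libraries, against 20.2, 20.4 and 17.9 FPKM in the control siRNA libraries. All SIGLEC15 siRNA libraries were below all control siRNA libraries, with means of 14.3 ± 2.65 and 19.5 ± 1.37 FPKM in the SIGLEC15 siRNA and control siRNA groups (SD, n = 3 each). The log2 fold change was -0.45 (SE 0.154, 95% interval -0.82 to -0.08, edgeR adjusted p = 0.174), with an adjusted p of 0.0249 by DESeq2. HIST1H2AC, the next abundant, had 7.82 to 10.7 FPKM in the SIGLEC15 siRNA libraries and 5.54 to 9.82 FPKM in the control siRNA libraries.

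HIST1H2AG (ENSG00000196787, chromosome 6, 27133042 to 27135291, plus strand) had the smallest adjusted p of any histone gene. It had 175, 191 and 158 counts in the SIGLEC15 siRNA libraries, against 269, 286 and 282 counts in the control siRNA libraries. As FPKM these were 0.97, 1.23 and 0.872 in the SIGLEC15 siRNA libraries, against 1.64, 1.81 and 1.70 in the control siRNA libraries. The groups lay well apart, and the log2 fold change was -0.74 (SE 0.172, 95% interval -1.15 to -0.33), or 1.67-fold lower, with an edgeR adjusted p of 0.0647. It passed with DESeq2 (adjusted p = 0.000746), with limma-trend on log2(FPKM + 1) (adjusted p = 0.0416) and with edgeR on genes with a mean of at least 1 FPKM (adjusted p = 0.0466). Its stem-loop form, shown above, was in no other histone gene, and its annotated transcript extends 1761 bases beyond the stem-loop to a poly(A) signal. HIST2H2AC, also lower in all SIGLEC15 siRNA libraries, had 4.40, 5.55 and 4.34 FPKM there, against 6.20, 6.85 and 6.11 FPKM in the control siRNA libraries (log2 fold change -0.43, SE 0.17, edgeR adjusted p = 0.239).

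Of the linker genes in the clusters, HIST1H1C was the only one above 1 FPKM. It had 36.9, 30.8 and 28.98 FPKM in the SIGLEC15 siRNA libraries, against 22.9, 27.0 and 30.9 FPKM in the control siRNA libraries (log2 fold change 0.26, SE 0.156, edgeR adjusted p = 0.441). The groups overlapped, with control siRNA replicate 3 above SIGLEC15 siRNA replicates 2 and 3. HIST1H1B had 21, 36 and 4 counts in the SIGLEC15 siRNA libraries, against 4 counts in each control siRNA library, and HIST1H1D had 4, 4 and 5 counts in the SIGLEC15 siRNA libraries, against 11, 7 and 15 counts in the control siRNA libraries. Neither had enough counts to be tested. HIST1H1A and the testis gene HIST1H1T had no count.

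The replication-dependent H3 and H4 genes were low. HIST1H3H was the highest of the H3 genes, with 1.495, 1.16 and 1.09 FPKM in the SIGLEC15 siRNA libraries, against 1.498, 1.93 and 1.13 FPKM in the control siRNA libraries. HIST1H3E had 0.796 to 1.02 FPKM in the SIGLEC15 siRNA libraries and 0.574 to 0.809 FPKM in the control siRNA libraries, and HIST1H3G had 0.713 to 1.00 FPKM in the SIGLEC15 siRNA libraries and 0.764 to 0.891 FPKM in the control siRNA libraries. All of these overlapped between the groups. Among the H4 genes HIST1H4I had 5.31 to 5.42 FPKM in the SIGLEC15 siRNA libraries and 5.44 to 7.23 FPKM in the control siRNA libraries, a log2 fold change of -0.25 that did not pass; these were apart as FPKM and overlapped as TMM-scaled CPM. The extremes of the fold changes were both in genes with few counts. HIST4H4 had 12, 24 and 26 counts in the SIGLEC15 siRNA libraries, against 8, 19 and 0 counts in the control siRNA libraries (log2 fold change 1.11, SE 1.07, edgeR adjusted p = 0.649). HIST1H2AD had 17, 6 and 9 counts in the SIGLEC15 siRNA libraries, against 23, 30 and 4 counts in the control siRNA libraries (log2 fold change -0.92, SE 0.808, edgeR adjusted p = 0.608), and it overlaps another gene on its own strand.

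The members with no count in any library numbered 10. They were HIST1H1A, HIST1H1T, HIST1H2AA, HIST1H2AK, HIST1H2BA, HIST1H4A, HIST1H4F, HIST1H4G, HIST3H3 and H1FOO. The cluster genes known as testis histones, HIST1H1T, HIST1H2AA, HIST1H2BA and HIST3H3, were all among them.

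**Figure D3:**
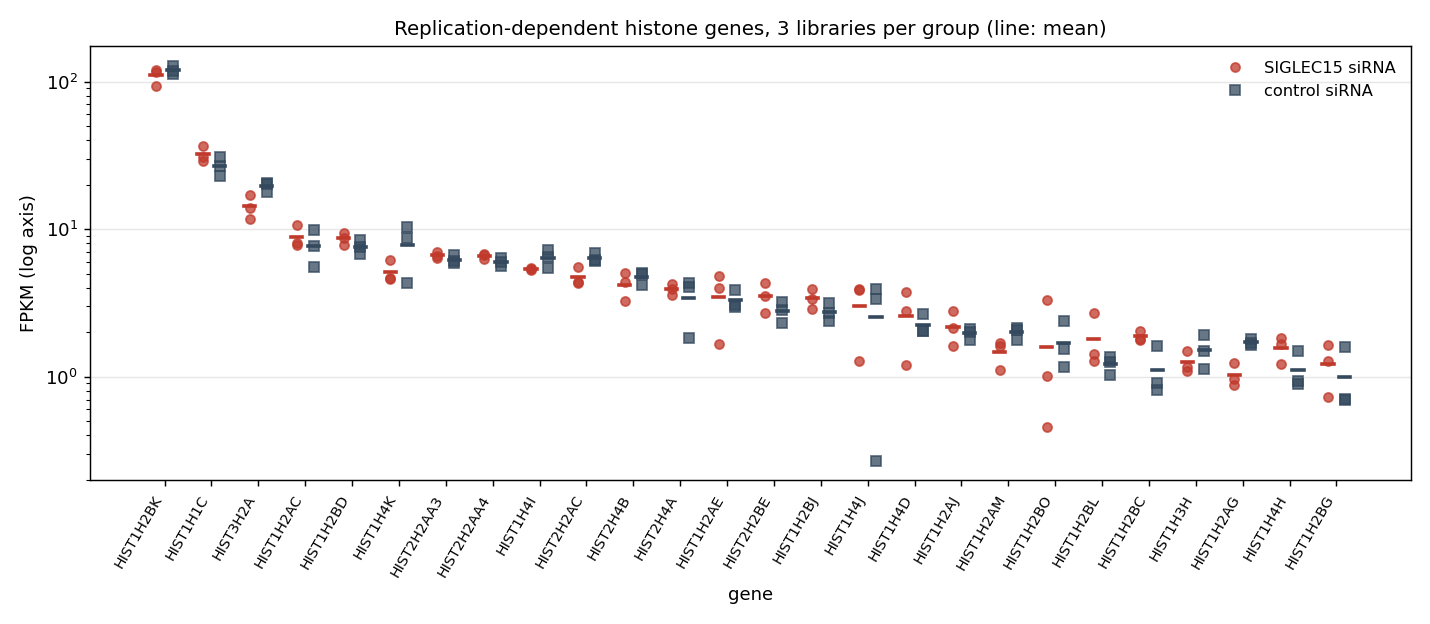
FPKM (y axis, log) of the 26 replication-dependent histone genes with a mean of at least 1 FPKM (x axis), with 1 point per library and a line at each group's mean, SIGLEC15 siRNA left of control siRNA. HIST1H2BK stands at 93.4 to 120 FPKM in the SIGLEC15 siRNA libraries and 112 to 128 FPKM in the control siRNA libraries, above every other gene of the class.

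Counts of replication-dependent genes differed by the annotated 3′ end. Of the 71 genes, 35 have gene models that stop at the end of the coding sequence, and their median of mean counts over the 6 libraries was 7.17. In another 9 the transcript with the stem-loop ends within 100 bases of it, with a median of 76.7 counts. One of these 9, HIST1H2BD, has a further coding transcript with a longer 3′ end, and without it the median of the other 8 was 65.7 counts. The 23 whose models extend past the stem-loop by more than 100 bases had a median of 127 counts, from 9.17 to 1117. Of these 23 genes, 17 had a poly(A) signal (AATAAA or ATTAAA) in the last 50 bases of the annotated coding transcript with the longest 3′ end, against 75.7% of other protein-coding genes. Another 4 genes have sequence after the stop codon without a match. A longer model also collects more reads at the same level, so counts across these models are not levels. As FPKM the medians of the mean levels were 0.187 for coding sequence only, 2.77 for those ending near the stem-loop and 0.862 for those extending past it, so the last 2 groups stood in the other order than by counts. HIST1H2BK and HIST1H1C, the most abundant genes by FPKM, have models with coding sequence only. The median log2 fold change was -0.06 for the 11 tested genes with coding sequence only, 0.13 for the 7 ending near the stem-loop (HIST1H2BD included) and 0.16 for the 23 extending past it, with 0 called by edgeR in each.

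**Figure D4:**
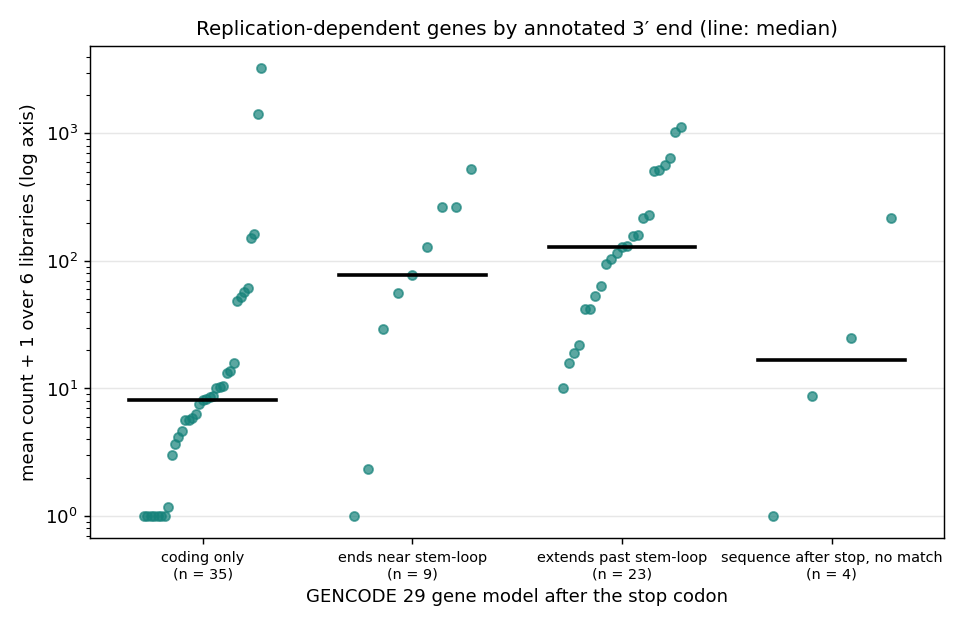
Mean count over the 6 libraries plus 1 (y axis, log) of each of the 71 replication-dependent histone genes, grouped by what GENCODE 29 annotates after the stop codon (x axis), with a line at the median; HIST1H2BD is placed by its transcript with the stem-loop. The 35 genes with coding sequence only have a median of 7.17 counts and the 23 genes extending past the stem-loop a median of 127 counts.

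Near-identical copies limit what can be said of single genes. Coding sequences of equal length had a median identity of 85.2% among H2A genes, 89.8% among H2B, 85.2% among H3 and 83.7% among H4. In 5 pairs, 10 members in all, the coding sequence was identical. HIST2H4A had 592, 546 and 543 counts in the SIGLEC15 siRNA libraries, against 555, 572 and 254 in the control siRNA libraries, and HIST2H4B had 499, 664 and 682 counts in the SIGLEC15 siRNA libraries, against 700, 571 and 714 in the control siRNA libraries. The low value of HIST2H4A in control siRNA replicate 3 fell in the library where HIST2H4B was highest. Summed, the pair had 1091, 1210 and 1225 counts in the SIGLEC15 siRNA libraries, against 1255, 1143 and 968 in the control siRNA libraries, and the log2 difference was -0.0029 (SE 0.137, edgeR adjusted p = 0.995).

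The pair HIST1H4J and HIST1H4K was split even more unevenly. HIST1H4J had 118, 99 and 39 counts in the SIGLEC15 siRNA libraries, against 108, 88 and 8 in the control siRNA libraries, and HIST1H4K had 115, 101 and 155 counts in the SIGLEC15 siRNA libraries, against 99, 192 and 238 in the control siRNA libraries. HIST1H4K was highest in control siRNA replicate 3, where HIST1H4J had 8 counts. Their sums of 233, 200 and 194 counts in the SIGLEC15 siRNA libraries, against 207, 280 and 246 in the control siRNA libraries, differed by -0.30 on the log2 scale (SE 0.185, edgeR adjusted p = 0.446). The sources used here do not say how the authors' counting divided reads that match both copies, so the single values of these pairs are uncertain. The sums of HIST2H2AA3 and HIST2H2AA4 (log2 fold change 0.11, edgeR adjusted p = 0.661) and of HIST2H3A and HIST2H3C (0.10, edgeR adjusted p = 0.873) also did not pass. HIST2H3A had 42, 38 and 50 counts in the SIGLEC15 siRNA libraries, against 47, 31 and 38 in the control siRNA libraries. HIST2H3C had the same counts except 37 in control siRNA replicate 3. Whether reads were counted for both copies, and so more than 1 time in a sum, was not tested.

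**Figure D5:**
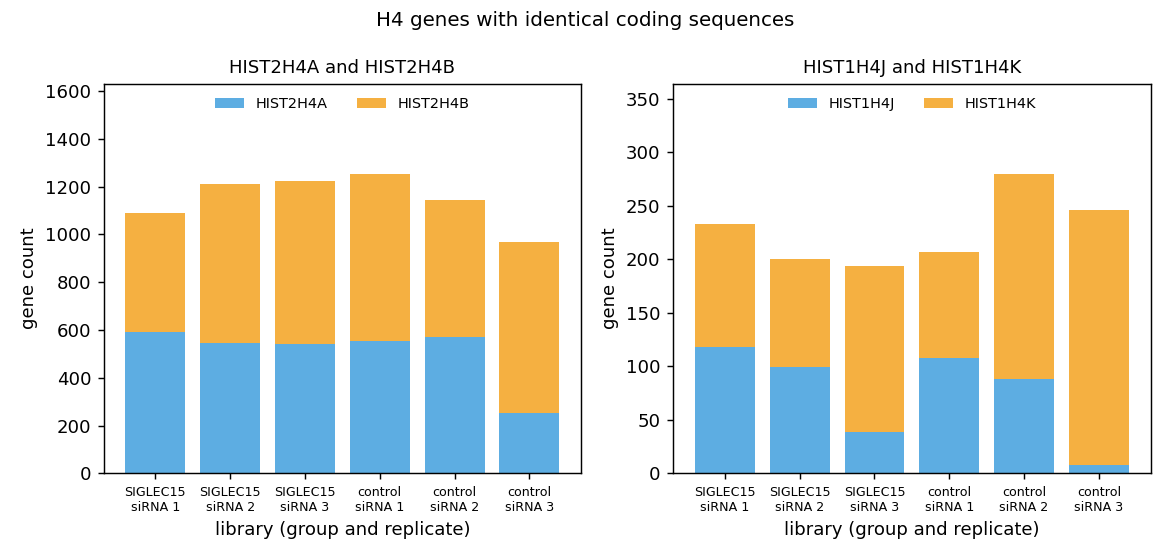
Gene counts (y axis) of the H4 pairs HIST2H4A and HIST2H4B (left) and HIST1H4J and HIST1H4K (right), stacked for each library (x axis), SIGLEC15 siRNA libraries left of control siRNA libraries. In control siRNA replicate 3 the partners hold 254 and 714 counts and 8 and 238 counts, the most uneven split of either pair.

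Replication-dependent genes varied more between libraries of 1 group than variant genes. Among members with a mean of at least 50 counts, the highest library was more than 2 times the lowest in at least 1 group for 9 of 31 replication-dependent genes and 0 of 11 variant genes. The median over members of that ratio was 1.60 in the replication-dependent class and 1.22 in the variant class. Of those 9 genes, HIST1H4J, HIST1H4K and HIST2H4A belong to the pairs with identical coding sequences, and the widest ratio, 13.6, was that of HIST1H4J in the control siRNA group. Summed with HIST1H4K, its ratio there was 1.42. With all such pairs summed, 6 of 29 replication-dependent entries had a ratio above 2 and their median was 1.46, against 0 of 11 and 1.22 for the variant genes. The genes compared differ in depth, with medians of 159 mean counts over the 31 replication-dependent genes and 7408 over the 11 variant genes, and the part of depth in this spread was not tested.

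Of the 60 genes that make, process or place histones, 3 were called (5.0%), near the 4.65% of all genes tested. Of 26 genes of histone transcription and 3′ end processing, all of which were tested, 0 rose and 1 fell, while 25 missed the threshold. Their median log2 fold change was -0.02. The one that fell was UPF1, the helicase that takes part in decay of histone mRNA and in nonsense-mediated decay. It had 81.3, 80.6 and 77.8 CPM in SIGLEC15 siRNA libraries, against 104, 105 and 109 CPM in control siRNA libraries (log2 fold change -0.41, SE 0.0586, edgeR adjusted p = 0.0149). SLBP itself had 72.5, 64.6 and 95.9 CPM in SIGLEC15 siRNA libraries, against 97.2, 91.8 and 78.4 CPM in control siRNA libraries, and did not pass (edgeR adjusted p = 0.574). NPAT, the coactivator of histone gene transcription, had an edgeR adjusted p of 0.936.

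Of 34 histone chaperone and exchange genes tested, 1 rose and 1 fell, while 32 missed the threshold. Their median log2 fold change was -0.08. At an unadjusted p under 0.05 there were 11 of 34 (32.4%), against 19.1% of all genes tested, and the groups did not overlap in 13 (38.2%), against 26.6%. In the processing list the shares were 4 of 26 (15.4%) and 7 of 26 (26.9%). SRCAP, the ATPase of the complex that exchanges H2A for H2A.Z, had 35.1, 39.8 and 42.9 CPM in SIGLEC15 siRNA libraries, against 83.6, 65.6 and 69.7 CPM in control siRNA libraries. It fell 1.86-fold (log2 fold change -0.89, SE 0.121, edgeR adjusted p = 0.0129), and the groups lay well apart. UBN2, a subunit of the HIRA complex that places the replacement H3, had 13.9, 15.7 and 15.4 CPM in SIGLEC15 siRNA libraries, against 10.5, 9.55 and 9.02 CPM in control siRNA libraries. It rose by 0.63 on the log2 scale (SE 0.113, edgeR adjusted p = 0.0307). UBN2 lost its call when any single library was left out, with adjusted p between 0.0607 and 0.116. UPF1 kept its call only without SIGLEC15 siRNA replicate 1 (adjusted p = 0.0486), and SRCAP lost its call without SIGLEC15 siRNA replicate 2 (adjusted p = 0.0655).

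Of 31 S phase genes tested, 0 rose and 2 fell, while 29 missed the threshold. The called share of 6.45% stood beside 4.65% of all genes tested. Their median log2 fold change was -0.12, with 25 of 31 negative. At an unadjusted p under 0.05 there were 9 of 31 (29.03%), 1 higher and 8 lower, against 19.1% of all genes tested. The groups did not overlap in 13 of 31 (41.9%), 2 higher and 11 lower, against 26.6% of all genes tested. These shares describe the list, with no test of it. FEN1, the flap endonuclease of lagging-strand synthesis, had 92.2, 85.2 and 93.8 CPM in SIGLEC15 siRNA libraries, against 158, 167 and 182 CPM in control siRNA libraries (log2 fold change -0.90, SE 0.0766, edgeR adjusted p = 0.00326). MCM6, a subunit of the replicative helicase, had 164, 161 and 176 CPM in SIGLEC15 siRNA libraries, against 204, 211 and 206 CPM in control siRNA libraries (log2 fold change -0.31, SE 0.0598, edgeR adjusted p = 0.0389). FEN1 was called with each library left out in turn, whereas MCM6 was called in none of those fits (adjusted p 0.0573 to 0.14). The part of cell cycle phase in the histone values was not tested.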

How the data were processed

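Poly(A) RNA of 143B cells was sequenced as paired-end libraries, per the labels' protocols. The authors deposited whole-number counts and FPKM values per gene and library in one table, per the file headers. HISAT, StringTie and edgeR are named in the submitters' processing notes. The sources used here give neither the counting and strand setting nor the genome build. An FPKM of 0 is written as 0.0001 in the table, and FPKM was read as 0 wherever the count was 0. Lengths implied by the counts, the FPKM and the summed gene counts per library ran at 1.16 to 1.29 times the exon bases of GENCODE 29. They lay within 5% of the median ratio for 55 of 57 members with at least 50 counts over the 6 libraries together. Another per-million total in the FPKM would shift this ratio alike for all genes, so it does not show that the lengths used were longer. Of the 87 members, 79 have the same ends in GENCODE 29 on GRCh38, 82 have a current symbol in the gene name table, and 22 overlap another gene. Coordinates of genes are as the table gives them.

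The edgeR 4.0.16 package (R 4.3.3) was run on the counts of all genes (filterByExpr with a minimum count of 10 and total of 15, TMM, quasi-likelihood F test, no covariate), with Benjamini-Hochberg adjustment over all 18910 genes tested and a threshold of 0.05. The edgeR fit was tested on simulated counts, and the simulation covered no other step. Depth was 57966691 to 67655254 counts per library; intervals are 95% intervals of the fit. The members and the lists were chosen with earlier results of these data known. The rule for named members took the 3 highest by mean FPKM in each family and class, the extremes of the fold change, any called member and those with no count; of the lists, the called genes. Members named for an unadjusted p under 0.05, for groups that did not overlap, or as the pairs and HIST1H2BM, and SLBP, NPAT and CENPA, were chosen after values were seen. Alternatives were DESeq2 size factors, the DESeq2 1.42.0 Wald test, limma-trend (limma 3.58.1) on log2(FPKM + 1) and log2(FPKM + 0.1), no filter, a mean FPKM of at least 1, the replicate number as a block and each library left out in turn. Summing members with identical coding sequences, for the test and for the spread between libraries, and ranking by the longest coding transcript were added after seeing the data.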

Additional observations from a re-analysis of the deposited data

How the results depend on the processing

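The count of histone genes called was 0 with edgeR and stayed at 0 with DESeq2 size factors, with no filter and with identical coding sequences summed. It was 2 of 37 on genes with a mean FPKM of at least 1 (8.54% of all genes in that fit), 3 of 48 with DESeq2 (17.1%), and 1 of 37 with limma-trend on log2(FPKM + 1) (7.99%) and on log2(FPKM + 0.1) (7.90%). Of these calls, 1, 2, 1 and 1 were replication-dependent genes and 1, 1, 0 and 0 variant genes. Leaving out 1 library at a time gave 0 to 1 histone genes called (0 to 1.72% of those tested), against 1.33 to 2.20% of all genes. The calls held 0 to 1 variant genes and 0 to 0 replication-dependent genes. They were H2AFX without SIGLEC15 siRNA replicate 1 and H3F3B without control siRNA replicate 1. The replication-dependent median log2 fold change then lay between -0.000948 and 0.198, the variant median between -0.185 and -0.0384, and SIGLEC15 between -1.09 and -0.419. The processing and chaperone genes called, 3 of 60 in the main fit (5.0%), numbered 13 with DESeq2 and 0 to 2 with 1 library left out. Of all genes, DESeq2 called 17.1% and the left-out fits 1.33 to 2.20%. H1FX had a negative fold change without SIGLEC15 siRNA replicate 1 (-0.0281) or 2 (-0.00533) or without control siRNA replicate 1 (-0.0277), within a left-out range of -0.0281 to 0.156. HIST1H3G had one without SIGLEC15 siRNA replicate 3 (-0.00763), within -0.00763 to 0.217. MCM6 lost its call with no filter (adjusted p = 0.0579). Where a call changed, the cause was not tested.

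The replicate numbers did not pair the libraries: the deviations of same-numbered libraries correlated at -0.0712, 0.00662 and -0.117. With the number as a block, 0 histone genes, 0 processing and chaperone genes and 50 of all genes were called by edgeR, and FEN1 kept its call (adjusted p = 0.0491).

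Depth limits the low members: 34 of 87 had a mean under 10 counts, and 33 were not tested. With 3 libraries per group, a difference that did not pass is not shown to be absent.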

Other observations

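Of 7 further histone genes found outside the symbol rule, 2 had enough counts to be tested and 5 had no count. CENPA did not pass (edgeR adjusted p = 0.965). H2BFS had at most 0.255 CPM in the SIGLEC15 siRNA libraries and at most 0.339 CPM in the control siRNA libraries.

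Some low members differed between libraries of 1 group. HIST1H2BL had 1.28, 2.71 and 1.43 FPKM in the SIGLEC15 siRNA libraries, against 1.26, 1.03 and 1.36 FPKM in the control siRNA libraries, with SIGLEC15 siRNA replicate 2 above all other libraries. HIST1H2AE had 4.77, 4.01 and 1.68 FPKM in the SIGLEC15 siRNA libraries, against 2.97, 3.06 and 3.86 FPKM in the control siRNA libraries. HIST1H2BN, which spans HIST1H2AL on the same strand, cannot be separated from it in the shared bases.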
